A study of Mus musculus with 9 samples.

Results

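The primary cilium is a single, non-motile projection that grows from the mother centriole. Intraflagellar transport (IFT) builds and maintains it: IFT-B trains move with kinesin-2 toward the tip, IFT-A trains return with dynein-2, the BBSome acts as a cargo adaptor, and the transition zone at the base gates what enters. In vertebrates Hedgehog signals are read in this organelle, where Smoothened accumulates and Gli proteins are processed, and granule neuron progenitors of the cerebellum carry cilia while they divide in response to Sonic Hedgehog. Here 47 genes of this machinery were followed in mouse Sonic Hedgehog (SHH) medulloblastoma. They were chosen by symbol, from known function, out of 23360 genes listed in every library. All 47 were listed, and all 47 were among the 14337 genes tested, which reached 1 FPKM (fragments scaled by transcript length and library size) in at least 3 libraries. They comprise 10 IFT-B subunits, 3 IFT-A subunits, 6 motor subunits, 10 BBSome subunits and cofactors, 4 proteins of ciliary membrane traffic, 9 transition zone proteins, 3 basal body proteins and the pair of EvC zone proteins.

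RNA came from A1G tumours of Math1-cre;A1G;Ptch1+/- mice, from Ptch1 tumours of Ptch1+/- mice, and from the cerebellum of wild-type adult C57BL/6 mice, with 3 libraries in each group. Both kinds of tumour therefore arose in mice with 1 mutant Ptch1 allele, and the labels do not give the state of the other allele in the tumours. In the mice with A1G tumours Cre is driven by the Math1 (Atoh1) promoter, which is active in the granule neuron progenitor lineage. The series' design text names ATOH1 as the driver of the A1G tumours. The labels do not spell out the A1G allele or give ages of the tumour-bearing mice. Tumour mice were of mixed strain and the wild-type mice C57BL/6, so in every comparison with cerebellum strain and tissue cannot be told apart in full. The labels number the libraries 1 to 3 without saying whether they came from separate animals, so p-values measure the spread between these libraries. Libraries were read 3 to an Ion Proton chip, but the labels do not say which went together, so chip and group cannot be told apart.

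Libraries held 2350941 to 9290237 fragments on genes, and the cilium genes had 145 (Tctn1) to 9071 (Kif3a) fragments summed over the 9 libraries. Levels below are CPM, fragments scaled to a common library size over all 9 libraries; a count of 0 allows up to 0.323 to 1.28 CPM, depending on the library. Atoh1 stood at 296 to 652 CPM in A1G tumours, 279 to 405 CPM in Ptch1 tumours and 0 to 16.4 CPM in cerebellum, with the ranges of both tumour kinds overlapping. The tissues differed widely in cell makeup. All 4 proliferation markers and all 5 granule progenitor markers were higher in tumours, with summed proliferation markers at 954 to 4077 CPM in A1G tumours, 4120 to 5074 CPM in Ptch1 tumours and 6.19 to 9.73 CPM in cerebellum. All 5 mature granule neuron markers were lower in tumours, summing to 331 to 894 CPM in A1G tumours, 179 to 543 CPM in Ptch1 tumours and 5396 to 6738 CPM in cerebellum. All 5 Purkinje cell markers were lower, summing to 326 to 649 CPM in A1G tumours, 164 to 259.8 in Ptch1 tumours and 8009 to 10182 in cerebellum, with Pcp2 at 0 in all Ptch1 tumours; so were all 5 oligodendrocyte markers and 4 of 5 astrocyte markers. Of the microglia markers 2 of 5 were higher, and of the endothelial markers 1 of 5 and of the tested choroid plexus markers 1 of 3 were lower. The choroid plexus call was Ttr, at 2678, 37.7 and 83.5 CPM in cerebellum, so cerebellum replicate 1 stood apart. In that tissue the summed choroid plexus markers ran from 54.1 to 2734 CPM, against 8.22 to 31.8 CPM in tumours. Leaving out cerebellum replicate 1 or cerebellum replicate 2 each cost the lower calls of Bbs4, Ift20, Nedd9 and Sstr3, described below. Among cerebellum libraries, the Foxj1 call was lost only without replicate 1, and that of Inpp5e without replicate 2 or 3. The part of choroid plexus in these calls was not tested. A1G replicate 2 stood apart from its group, with a mean Spearman correlation of 0.894 with its own group against 0.914 to 0.964 in the other 8 libraries, and Mki67, a proliferation marker, at 620 CPM against 2597 to 3946 CPM in the other tumours. In bulk RNA, fewer cells of a type and less RNA per cell cannot be told apart.

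The promoters of these genes are shown first because many of them share a feature that the choice of genes did not use. RFX transcription factors, which drive ciliary genes from worm to mammal, bind the X-box, searched here as GTTNCC, 3 bases of any kind and GNAAC in a row, and as its half-site GTTGCC. Both were searched on both strands, from 250 bases before to 50 after the start. RefSeq promoters (GRCm38.p6) were at hand for 43 of the 47 genes, all but Ift80, Ift81, Ift122 and Dync2li1. The half-site was present in 20 of 43 cilium promoters (46.5%), against 14.1% of 27025 genes with a promoter and 14.7% of the 10342 of them that were tested here. The full X-box, which in these 4 genes contains the half-site, was present in 4 of 43 (9.30%), against 0.936% of all genes and 1.15% of tested genes. The 4 full matches are given in capitals, each read in a direction that begins with the half-site GTTGCC. Tctn1 and B9d2 hold theirs downstream of the start, beginning at bases 37 and 17. Mks1 and Bbs7 hold theirs upstream, beginning 24 and 121 bases before the start.
Mks1 X-box: GTTGCCAGGGGAAC
Bbs7 X-box: GTTGCCTTGGAAAC
Tctn1 X-box: GTTGCCCGGGCAAC
B9d2 X-box: GTTGCCCCAGCAAC
The Tctn1 site is a perfect palindrome and so reads the half-site on both strands. The 250 bases upstream of the start are printed for 3 genes that were higher in tumours, 5′ to 3′ on the gene's own strand, with the X-box or half-site in capitals: Mks1 (chr11:87852965-87853214, plus strand), Evc (chr5:37336882-37337131, minus strand) and Ift140 (chr17:25015836-25016085, plus strand).
Mks1: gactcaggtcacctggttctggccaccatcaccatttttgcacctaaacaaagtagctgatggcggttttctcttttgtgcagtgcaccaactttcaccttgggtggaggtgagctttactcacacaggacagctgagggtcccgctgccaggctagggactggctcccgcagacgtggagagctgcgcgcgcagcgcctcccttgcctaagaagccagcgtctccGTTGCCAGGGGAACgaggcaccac
Evc: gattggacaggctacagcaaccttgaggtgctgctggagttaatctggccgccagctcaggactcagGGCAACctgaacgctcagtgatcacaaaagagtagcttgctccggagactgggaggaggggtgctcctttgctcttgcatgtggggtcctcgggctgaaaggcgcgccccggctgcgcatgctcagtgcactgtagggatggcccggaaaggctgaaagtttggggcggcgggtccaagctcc
Ift140: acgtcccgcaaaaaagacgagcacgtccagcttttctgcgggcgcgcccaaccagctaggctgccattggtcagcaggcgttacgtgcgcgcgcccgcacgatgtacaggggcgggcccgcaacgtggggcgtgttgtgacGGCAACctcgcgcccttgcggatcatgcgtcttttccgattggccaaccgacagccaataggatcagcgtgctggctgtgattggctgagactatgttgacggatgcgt
The half-site lies on the minus strand of the gene in Evc and Ift140 and so appears as GGCAAC. The Gli motif GACCACCCA was found in 0 of 43 of these windows, against 0.289% of all genes. At so low a background share 0 of 43 is the likely count for any genes, so it shows no lack of Gli sites. The half-site was found in every class of change: it was in 5 of the 9 higher genes with a promoter (Ift140, Dync2h1, Arl13b, Mks1 and Evc), in 1 of 5 lower genes (Kif17), and in 14 of 29 genes that passed in neither direction.

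Set against cerebellum, the machinery did not move as a block. With the mean of both tumour groups against cerebellum, 16 of 47 genes (34.0%) passed edgeR's quasi-likelihood test at an adjusted p under 0.05, against a background of 42.2% of all genes tested. Of these, 11 were higher in tumours (background 20.7%) and 5 were lower (background 21.5%). The median log2 change was 0.18 over the 47 genes and 0.01 over all genes tested. All 6 tumour libraries lay above all 3 cerebellum libraries for 10 genes (background 18.5%) and below them for 6 (background 19.7%), together 34.0% against 38.2% of all genes tested. The share of changed genes was thus no higher than the background, and what follows is which members changed. Counts by role below stand against the same background of 20.7% higher and 21.5% lower. The higher genes were Evc, Evc2, Bbs12, Dync2li1, Ift140, Mks1, Ift74, Dync2h1, Ift122, Ofd1 and Arl13b, and the lower ones were Kif17, Bbs4, Ift20, Kifap3 and Inpp5e. Neuronal, oligodendrocyte and most astrocyte markers were lower and proliferation markers higher in the same comparison, and their part in these calls was not tested.

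**Figure D1:**
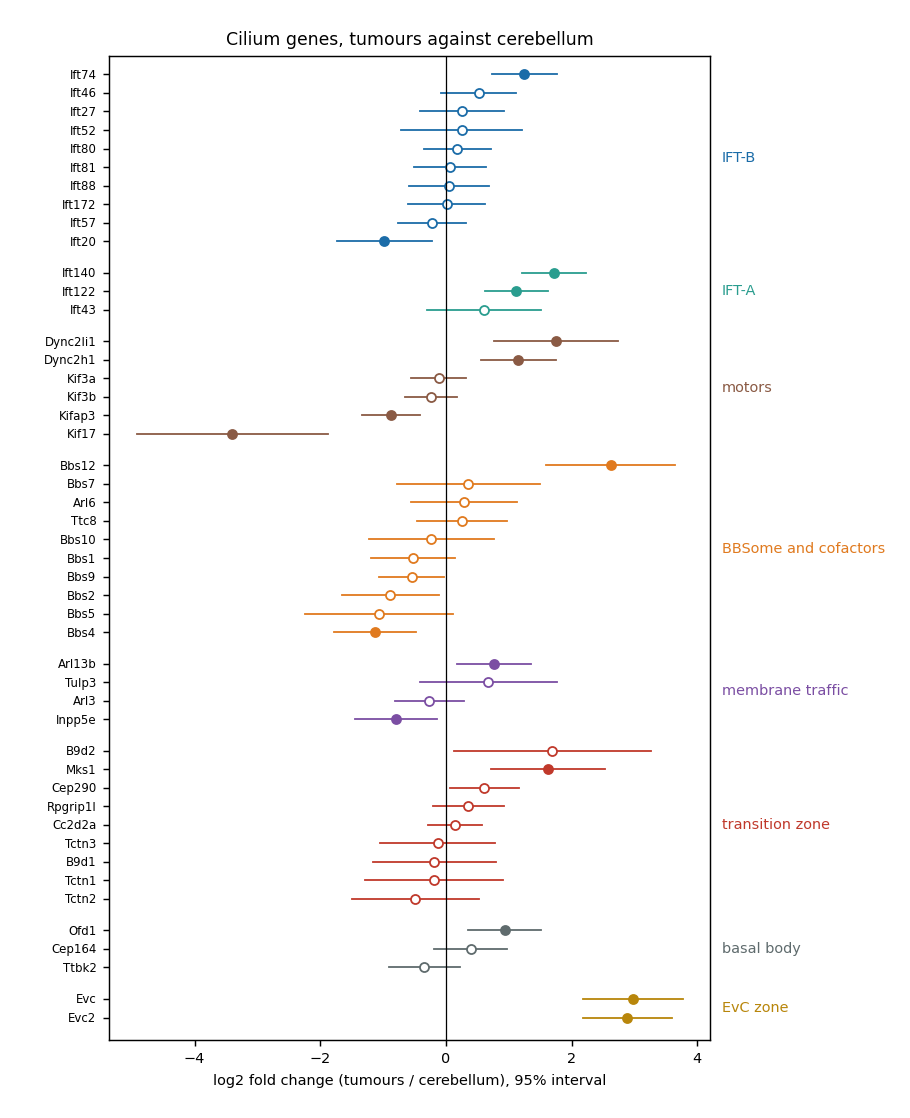
Log2 fold change of each of the 47 cilium genes, mean of A1G and Ptch1 tumours over cerebellum, grouped by role. Points are edgeR estimates, bars are 95% intervals, filled points passed an adjusted p under 0.05; 11 genes pass to the right of 0 and 5 to the left, with Evc at 2.97 and Kif17 at -3.40 as the extremes.

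The EvC zone pair changed most among the higher genes. Evc and Evc2 are partner membrane proteins that sit just above the ciliary base, bind Smoothened and pass the Hedgehog signal on toward the Gli proteins; loss of either causes Ellis-van Creveld syndrome in humans. Evc had 68.6, 35.2 and 28.0 CPM in A1G tumours, 48.5, 54.9 and 60.2 in Ptch1 tumours, and 7.62, 6.08 and 4.99 in cerebellum. The lowest tumour library was well above the highest cerebellum library. The log2 change was 2.97 (SE 0.36), 7.85-fold higher in tumours, with an adjusted p of 4.53e-05. Evc2 had 52.3, 65.8 and 33.7 CPM in A1G tumours, 53.6, 81.7 and 60.9 in Ptch1 tumours, and 6.04, 8.21 and 8.99 in cerebellum. Again no tumour library reached down to the cerebellum range. Its log2 change was 2.89 (SE 0.33), 7.40-fold higher in tumours, with an adjusted p of 2.39e-05. The genes lie head to head on chromosome 5, Evc at chr5:37289098-37336894 on the minus strand and Evc2 at chr5:37338499-37425055 on the plus strand (GENCODE M21, GRCm38, the assembly called mm10), with 1605 bases between their starts. Per length within cerebellum they were among the scarcest of the 47, with mean FPKM of 1.47 for Evc (rank 45) and 1.92 for Evc2 (rank 44), whereas within A1G tumours they ranked 23 and 19, and within Ptch1 tumours 22 and 16.

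Of the 3 IFT-A genes among the 47, the large subunits Ift140 and Ift122 rose and the small Ift43 did not pass. The further IFT-A genes Wdr19, Wdr35 and Ttc21b, outside the 47 and given at the end, were not called. Ift140 (chr17:25016085-25099495, plus strand) and Ift122 (chr6:115853470-115926699, plus strand) encode subunits of the complex that carries cargo back from the tip and brings receptors in. Ift140 had 110.2, 130.1 and 109 CPM in A1G tumours, 110.4, 150.1 and 109.96 in Ptch1 tumours, and 29.9, 38.9 and 39.7 in cerebellum. The tumour libraries were tight and clear of the cerebellum, and the log2 change was 1.73 (SE 0.23, adjusted p = 9.51e-05), 3.31-fold higher in tumours. Ift122 had 88.1, 78.3 and 99.1 CPM in A1G tumours, 132, 109.9 and 152 in Ptch1 tumours, and 56.7, 38.9 and 52.9 in cerebellum. Its 3 groups formed 3 separate ranges, with Ptch1 tumours on top. The log2 change for tumours over cerebellum was 1.12 (SE 0.23, adjusted p = 0.00189). Ift43, a small IFT-A subunit, had 7.37, 14.97 and 4.11 CPM in A1G tumours, 22.4, 17.5 and 16.5 in Ptch1 tumours, and 6.30, 10.6 and 8.59 in cerebellum; A1G tumours overlapped cerebellum, and the log2 change of 0.61 (SE 0.42) had an adjusted p of 0.263.

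Among the motors both dynein-2 genes were higher, while of the 4 kinesin-2 genes Kifap3 and Kif17 were lower and Kif3a and Kif3b were not called. Dync2h1 (chr9:6928503-7184446, minus strand), the heavy chain of the retrograde motor, had 216, 109 and 224 CPM in A1G tumours, 155, 141 and 128 in Ptch1 tumours, and 55.9, 74.8 and 85.9 in cerebellum. A1G replicate 2 was the lowest tumour library yet still above every cerebellum library. The log2 change was 1.15 (SE 0.28, adjusted p = 0.00496). Dync2li1, the light intermediate chain, had 8.85, 11.2 and 9.46 CPM in A1G tumours, 20.4, 14.2 and 9.58 in Ptch1 tumours, and 5.78, 2.13 and 2.80 in cerebellum. It was 3.36-fold higher in tumours (log2 change 1.75, SE 0.45, adjusted p = 0.00791).

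Kifap3, the non-motor subunit of heterotrimeric kinesin-2, had 106, 114 and 136 CPM in A1G tumours, 161, 130.3 and 151 in Ptch1 tumours, and 305, 222 and 201 in cerebellum. All tumour libraries were below all cerebellum libraries, and the log2 change was -0.88 (SE 0.21, adjusted p = 0.00503). Its motor partners Kif3a and Kif3b did not pass the test. Kif3a (chr11:53567379-53601967, plus strand), whose deletion abolishes cilia in mice, had 232, 176 and 219.6 CPM in A1G tumours, 296, 259 and 248.6 in Ptch1 tumours, and 289, 237 and 243 in cerebellum. The ranges overlapped, and the log2 change was -0.11 (SE 0.20, 95% interval -0.55 to 0.32, adjusted p = 0.678). For Kif3b the log2 change was -0.24 (95% interval -0.65 to 0.18). Kif17, a homodimeric kinesin-2 that in neurons also carries NMDA receptor vesicles along dendrites, had the largest fall of the 47. It had 0, 3.12 and 1.23 CPM in A1G tumours, 0.229, 1.12 and 3.06 in Ptch1 tumours, and 14.7, 9.12 and 21.6 in cerebellum. Several tumour libraries held no more than a few fragments, and the 0 in A1G replicate 1 allows up to 1.16 CPM. The log2 change was -3.40 (SE 0.70, 95% interval -4.93 to -1.87, adjusted p = 0.00195). Mature granule and Purkinje neuron markers fell in the same libraries, as given above.

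Of the 10 IFT-B genes, 1 rose (10%, background 20.7%), 1 fell (10%, background 21.5%) and 8 passed in neither direction. Ift74 (chr4:94614491-94693229, plus strand), which pairs with Ift81 to carry tubulin, had 77.8, 58.9 and 64.6 CPM in A1G tumours, 139, 125 and 87.7 in Ptch1 tumours, and 38.9, 39.2 and 33.9 in cerebellum. The groups formed 3 ranges with no overlap; the log2 change for tumours over cerebellum was 1.25 (SE 0.24, adjusted p = 0.00108). Its partner Ift81 did not move with it, at a log2 change of 0.06 (95% interval -0.51 to 0.64). Ift20, an IFT-B subunit that also sits at the Golgi, had 13.6, 9.98 and 11.9 CPM in A1G tumours, 16.7, 17.5 and 14.2 in Ptch1 tumours, and 41.0, 28.6 and 12.8 in cerebellum. Cerebellum replicate 3 lay inside the tumour range. The log2 change was -0.98 (SE 0.35) with an adjusted p of 0.0376, and without cerebellum replicate 1 it was -0.57 with an adjusted p of 0.267; the call was also lost without 6 other single libraries, at adjusted p values of 0.0536 to 0.108. Ift88, the subunit mutated in the Oak Ridge polycystic kidney mouse, had 26.2, 18.4 and 28.4 CPM in A1G tumours, 53.6, 31.0 and 26.8 in Ptch1 tumours, and 33.6, 27.4 and 25.8 in cerebellum. The 3 ranges overlapped, with Ptch1 replicate 1 the highest, and the log2 change was 0.06 (SE 0.29, 95% interval -0.58 to 0.69, adjusted p = 0.896). The other 6 IFT-B genes had log2 changes of -0.22 (Ift57) to 0.52 (Ift46).

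The BBSome group held 1 gene that rose, and it is not a subunit. Bbs12 (chr3:37312554-37321453, plus strand) is a chaperonin-like cofactor needed to assemble the complex. It had 17.7, 9.98 and 14.4 CPM in A1G tumours, 18.8, 33.3 and 15.3 in Ptch1 tumours, and 4.73, 2.13 and 1.80 in cerebellum. Every tumour library was above every cerebellum library, and the log2 change was 2.62 (SE 0.47, adjusted p = 0.000759), 6.16-fold higher in tumours. The other chaperonin-like cofactor on the list, Bbs10, had a log2 change of -0.23 (95% interval -1.23 to 0.77). Bbs4, a subunit, had 23.2, 12.5 and 23.4 CPM in A1G tumours, 17.4, 14.2 and 19.9 in Ptch1 tumours, and 48.1, 46.5 and 25.8 in cerebellum. Tumours lay below cerebellum without overlap, at a log2 change of -1.13 (SE 0.30, adjusted p = 0.00985); the adjusted p was 0.0519 without cerebellum replicate 1 and 0.0564 without cerebellum replicate 2. In 3 further subunits, Bbs2, Bbs5 and Bbs9, all tumour libraries were also below all cerebellum libraries. That makes 4 of the 10 genes in this group, against 19.7% of all genes tested. The log2 changes of Bbs2, Bbs5 and Bbs9, at -0.88, -1.07 and -0.54, missed the threshold. Their adjusted p values in edgeR's test were 0.0642, 0.134 and 0.0855. Bbs1, Bbs7, Ttc8 and Arl6, the GTPase that recruits the BBSome to membranes, had log2 changes of -0.52, 0.36, 0.26 and 0.29 and passed in neither direction.

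In ciliary membrane traffic 1 gene rose and 1 fell, both narrowly. Arl13b (chr16:62793685-62847040, minus strand), a GTPase of the ciliary membrane required for normal Hedgehog output, had 25.1, 17.8 and 28.8 CPM in A1G tumours, 45.6, 47.7 and 41.4 in Ptch1 tumours, and 24.2, 17.9 and 15.8 in cerebellum. Only the Ptch1 tumours lay clear of the cerebellum. Across both tumour groups the log2 change was 0.76 (SE 0.27, adjusted p = 0.0395), and it was lost without A1G replicate 1 or 3, Ptch1 replicate 1 or 2, or cerebellum replicate 2 or 3, at adjusted p values of 0.0615 to 0.134. Inpp5e, the phosphoinositide phosphatase that Arl13b brings into the cilium, had 55.7, 36.8 and 40.3 CPM in A1G tumours, 37.8, 22.02 and 40.6 in Ptch1 tumours, and 39.4, 69.9 and 90.8 in cerebellum. Cerebellum replicate 1 lay within the tumour range. The log2 change was -0.80 (SE 0.30, adjusted p = 0.0486); without cerebellum replicate 3 it was -0.50 with an adjusted p of 0.262, and the call was also lost without A1G replicate 2 or 3, Ptch1 replicate 1 or 2, or cerebellum replicate 2, at adjusted p values of 0.0629 to 0.135. Its exons share 20.3% of their bases with Pmpca on the other strand and its deposited counts are not whole numbers, so its level is uncertain. Smaller overlaps, of 1.31% to 3.21% of exon bases, touch Bbs12, Kif17, Arl6, Ofd1 and Bbs4. Arl3, which releases lipid-anchored cargo inside the cilium, was the most abundant of the 47 per length in all 3 groups, with mean FPKM of 54.5 in A1G tumours, 69.4 in Ptch1 tumours and 72.0 in cerebellum. Its log2 change was -0.27 (95% interval -0.82 to 0.28), and that of Tulp3, the adaptor that links receptors to IFT-A, was 0.67 (95% interval -0.42 to 1.76).

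Of 9 transition zone genes, 1 rose (11.1%, background 20.7%). Mks1 (chr11:87853215-87863803, plus strand), a B9-domain protein mutated in Meckel syndrome and the owner of the X-box printed above, had 7.74, 10.9 and 8.64 CPM in A1G tumours, 9.85, 6.85 and 9.96 in Ptch1 tumours, and 2.36, 3.34 and 2.995 in cerebellum. The groups were cleanly apart, at 3.07-fold higher in tumours (log2 change 1.62, SE 0.42, adjusted p = 0.00775). Its B9-domain partners did not pass: B9d1 had a log2 change of -0.18 (95% interval -1.16 to 0.79) and B9d2 one of 1.69 (95% interval 0.13 to 3.26, adjusted p = 0.077), with A1G replicate 2 at 37.1 CPM and the other A1G libraries at 2.88 and 4.79 CPM. Cep290, which helps link the axoneme to the membrane, had a log2 change of 0.61 with an adjusted p of 0.0683. The remaining 5, Rpgrip1l, Cc2d2a and the tectonic genes Tctn1, Tctn2 and Tctn3, had log2 changes of -0.49 to 0.36. Counts of Cep290 and Tctn1 were not whole numbers, and their exons share 7.58% and 19.0% of their bases with another gene.

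At the basal body Ofd1 rose, while Cep164 and Ttbk2 did not pass. Ofd1 (chrX:166390033-166440704, minus strand) is a protein of the distal centriole and the centriolar satellites, mutated in oral-facial-digital syndrome. It had 38.3, 25.9 and 35.4 CPM in A1G tumours, 42.8, 37.2 and 57.9 in Ptch1 tumours, and 19.4, 22.2 and 19.6 in cerebellum. The ranges did not overlap, and the log2 change was 0.93 (SE 0.27, adjusted p = 0.0131). Cep164, the distal appendage protein that recruits the kinase Ttbk2, had a log2 change of 0.39 (95% interval -0.18 to 0.97), and Ttbk2, which starts ciliogenesis, had one of -0.34 (95% interval -0.91 to 0.22); 29.9% of the exon bases of Ttbk2 are shared with Cdan1 on the same strand.

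**Figure D2:**
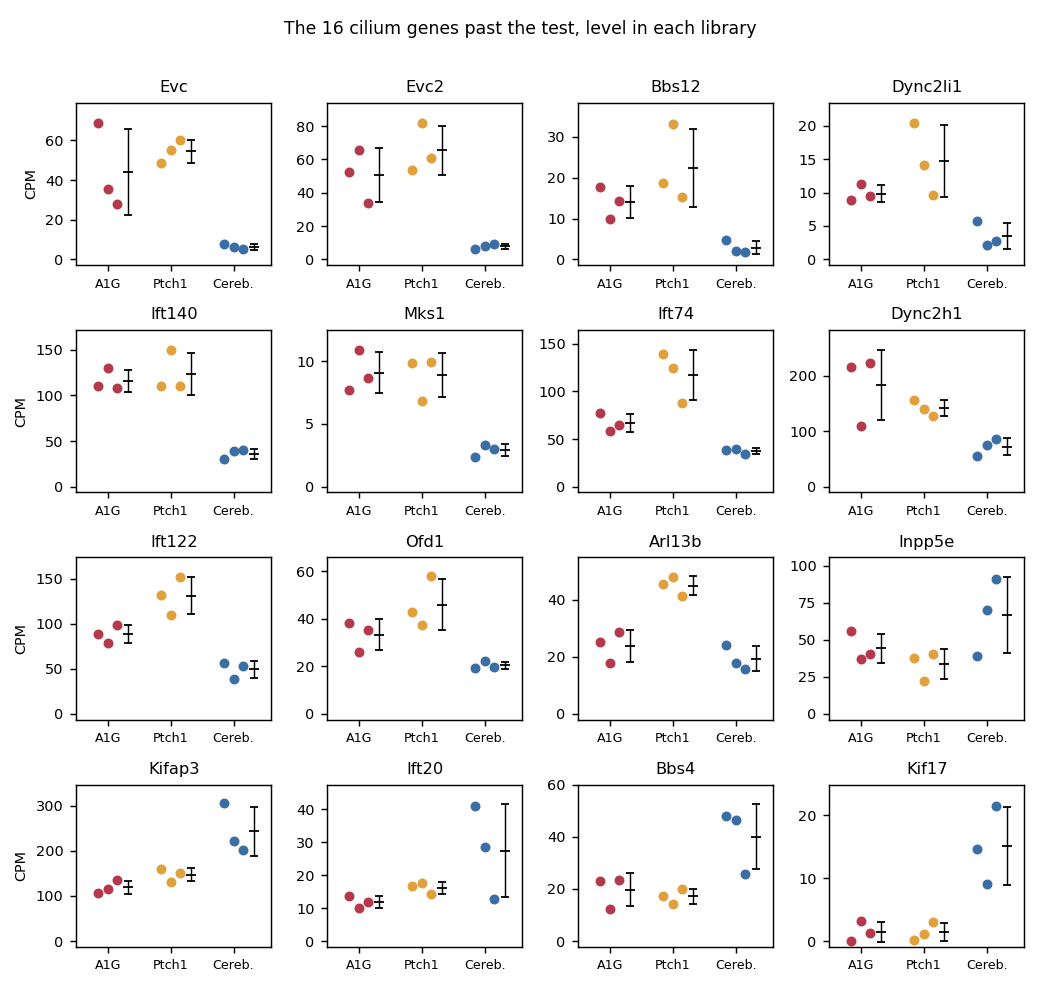
CPM of the 16 cilium genes that passed in tumours against cerebellum, by library: A1G tumours (red), Ptch1 tumours (orange), cerebellum (blue), with mean and SD of 3 libraries beside each group. Evc in cerebellum sits at 4.99 to 7.62 CPM, below every tumour library, while Ift20, Inpp5e and Arl13b overlap between tumours and cerebellum.

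Each tumour kind was also set against the same 3 cerebellum libraries, so these 2 comparisons share their controls. In A1G tumours against cerebellum 13 of 47 genes passed (27.7%, background 32.4%), 9 higher (background 16.3%) and 4 lower (background 16.1%). In Ptch1 tumours against cerebellum 16 passed (34.0%, background 40%), 12 higher (background 20.2%) and 4 lower (background 19.7%). For Evc the log2 change was 2.82 (SE 0.39) in A1G tumours and 3.13 (SE 0.39) in Ptch1 tumours, and for Ift140 it was 1.68 (SE 0.26) in A1G tumours and 1.77 (SE 0.26) in Ptch1 tumours. Ift74 stood at 0.85 in A1G tumours and 1.65 in Ptch1 tumours, and Ift122 at 0.84 in A1G tumours and 1.40 in Ptch1 tumours, passing in both. Arl13b passed in Ptch1 tumours and missed in A1G tumours, at 0.31 (adjusted p = 0.484) in A1G tumours and 1.22 (adjusted p = 0.00726) in Ptch1 tumours. Ofd1 did so too, at 0.70 (adjusted p = 0.0912) in A1G tumours and 1.17 (adjusted p = 0.00781) in Ptch1 tumours, as did Cep290, at 0.30 (adjusted p = 0.458) in A1G tumours and 0.93 (adjusted p = 0.0211) in Ptch1 tumours. Passing in one kind and not in the other is not a difference between them; that difference has its own test below. The lower calls were fragile: in A1G tumours 2 of the 4 remained without any 1 of 8 libraries (3 without cerebellum replicate 3), and in Ptch1 tumours 1 remained without Ptch1 replicate 1, Ptch1 replicate 2 or cerebellum replicate 2, and 2 without cerebellum replicate 1. Among the higher calls, Dync2li1, Ift74, Ift122 and Mks1 in A1G tumours and Cep290 and Dync2h1 in Ptch1 tumours were each lost without at least 1 library, and the count of higher genes ran from 6 to 9 in A1G tumours and from 10 to 14 in Ptch1 tumours.

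Between A1G and Ptch1 tumours no cilium gene passed. edgeR's quasi-likelihood test called 0 of 47, against a background of 0.0139% (2 of 14337 genes); the smallest adjusted p among the 47 was 0.328, and DESeq2 and limma also called 0. At an unadjusted p under 0.05 there were 7 genes (14.9%, background 10.6%), 6 lower in A1G tumours and 1 higher. The estimates leaned one way: 34 of 47 (72.3%) were below 0, against 48.3% of all genes tested, and the median was -0.25 against 0.02. A1G libraries lay wholly below Ptch1 libraries for 8 genes (background 8.84%) and wholly above for 2 (background 6.69%), together 21.3% against 15.5% of all genes tested. The 8 were Ift20, Ift57, Ift74, Ift43, Ift122, Kif3a, Kif3b and Arl13b, of which 5 are IFT subunits; the 2 were Bbs9 and Tctn3.

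The smallest unadjusted p values were those of Ift74, Arl13b, Ift57, Ift43 and Ift122, all lower in A1G tumours. For Ift74 the library values given above ran from 58.9 to 77.8 CPM in A1G tumours, against 87.7 to 139 CPM in Ptch1 tumours, a log2 change of -0.81 (SE 0.26, 95% interval -1.37 to -0.25) with an unadjusted p of 0.00845 and an adjusted p of 0.328 from edgeR. Arl13b ran from 17.8 to 28.8 CPM in A1G tumours, against 41.4 to 47.7 CPM in Ptch1 tumours, a log2 change of -0.92 (SE 0.31, adjusted p = 0.34). No A1G library of Arl13b overlapped the Ptch1 libraries. Ift57, an IFT-B subunit, had 32.1, 28.1 and 24.3 CPM in A1G tumours, 53.6, 41.1 and 54.4 in Ptch1 tumours, and 57.8, 34.97 and 37.7 in cerebellum. Its log2 change between the tumour kinds was -0.82 (SE 0.29, adjusted p = 0.373), and the Ptch1 range lay inside that of the cerebellum. Ift43 had a log2 change of -1.08 (95% interval -2.10 to -0.05, adjusted p = 0.449) and Ift122 one of -0.57 (95% interval -1.12 to -0.02, adjusted p = 0.455). The single gene higher in A1G tumours at an unadjusted p under 0.05 was Tctn3, a tectonic of the transition zone, with 10.7, 5.30 and 10.3 CPM in A1G tumours, against 3.43, 4.94 and 3.45 CPM in Ptch1 tumours (log2 change 1.12, adjusted p = 0.457).

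The genes named for their role in Hedgehog-dependent tumours gave wide intervals. Between A1G and Ptch1 tumours the log2 change was -0.31 (95% interval -1.07 to 0.45) for Evc, -0.37 (95% interval -1.05 to 0.32) for Evc2, -0.36 (95% interval -0.87 to 0.15) for Kif3a, -0.62 (95% interval -1.35 to 0.12) for Ift88 and -0.47 (95% interval -1.10 to 0.17) for Ofd1. With 3 libraries a group these 5 intervals cross 0, and those of Evc, Evc2, Ift88 and Ofd1 reach below -1, so neither equality nor a difference was shown. For Arl13b, the sixth of these genes, the interval of the change given above was -1.58 to -0.25 and did not cross 0; its unadjusted p was 0.0110 and its adjusted p from edgeR 0.34.

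**Figure D3:**
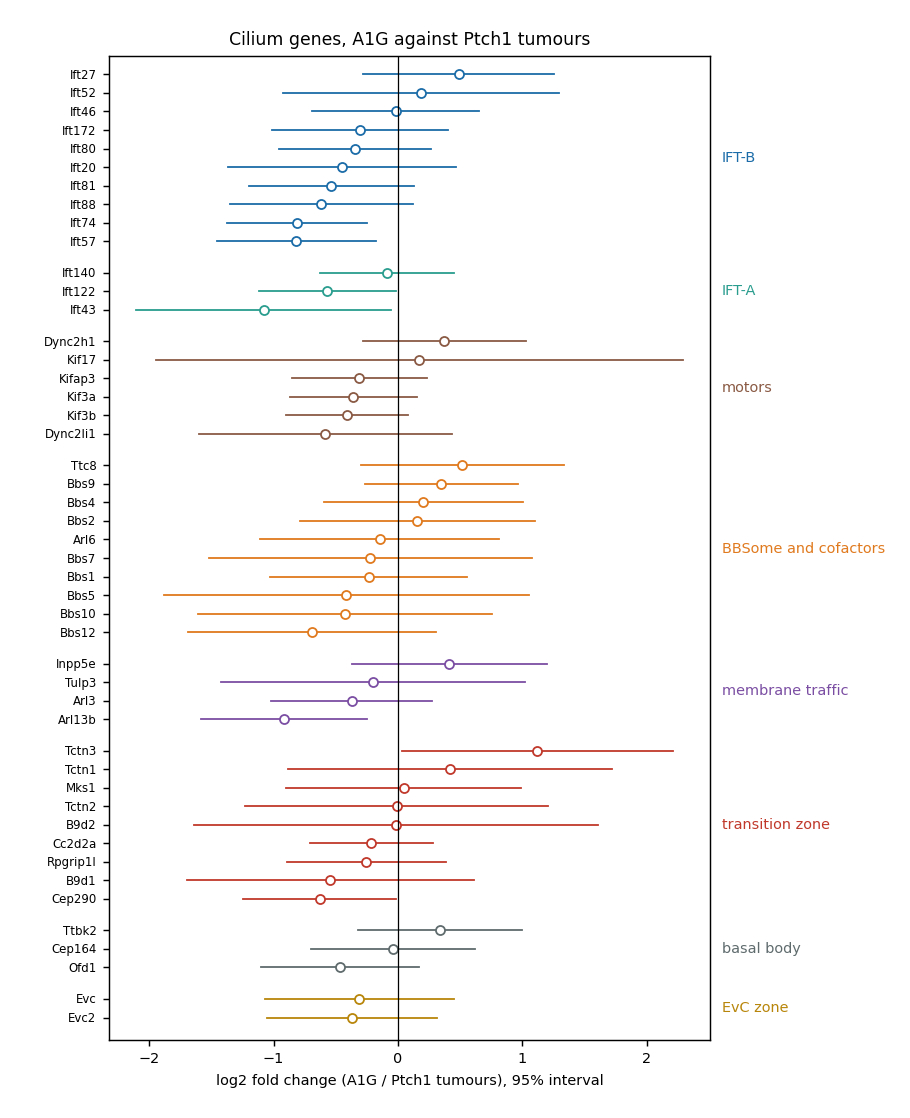
Log2 fold change of each of the 47 cilium genes, A1G over Ptch1 tumours, grouped by role, with 95% intervals. All points are open because none passed an adjusted p under 0.05; 34 lie left of 0, among them Ift74 at -0.81 and Arl13b at -0.92, and Tctn3 lies right of it at 1.12.

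Cilium genes beyond the 47 were taken from 8 further lists of 117 symbols, of which 109 were listed and 96 tested; the other 8 symbols were not analysed here. In tumours against cerebellum 35 were higher (36.5%, background 20.7%) and 5 lower (5.21%, background 21.5%), together 41.7% against 42.2% of all genes tested, with a median log2 change of 0.56. The calls were unevenly spread. The structural lists held few: 2 of 14 other IFT genes were higher (14.3%) and 0 lower, and 2 of 19 other BBSome and transition zone genes were higher (10.5%) and 0 lower, against the same background of 20.7% higher. Those were Ttc26, an IFT-B subunit (log2 change 2.71, SE 0.41), Wdr60, a dynein-2 intermediate chain (0.99, SE 0.31), Wdpcp, a planar polarity effector at the ciliary base (2.32, SE 0.44), and Tmem107, a transition zone membrane protein (2.10, SE 0.61). Of 3 dynein-2 subunits in these lists Wdr60 was thus the 1 that rose; Wdr34 had a log2 change of 0.60 (adjusted p = 0.333) and Tctex1d2 one of 0.31 (adjusted p = 0.725) in edgeR's test. The Wdr60 call was lost without cerebellum replicate 2 or 3 (adjusted p of 0.106 and 0.0860), as was that of Tmem107 without cerebellum replicate 2 (0.0690). Ttc26 had 32.1, 14.7 and 14.0 CPM in A1G tumours, 29.8, 34.7 and 28.7 in Ptch1 tumours, and 5.25, 2.74 and 3.39 in cerebellum.

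Centriole genes and cilium disassembly genes carried most of the rises. Of 22 centriole and appendage genes 14 were higher (63.6%, background 20.7%) and 0 lower, led by Plk4, the kinase that starts centriole duplication (log2 change 4.20, SE 0.45), Stil (3.42, SE 0.41) and Cenpj (2.81, SE 0.35), which build the new centriole. Of 9 cilium resorption genes 6 were higher (66.7%) and 1, the scaffold Nedd9, lower, led by the mitotic kinases Aurka (6.23, SE 0.53) and Plk1 (5.12, SE 0.47) and the kinesin Kif24 (2.44, SE 0.42). The Nedd9 call was lost without cerebellum replicate 1 or 2, at adjusted p values of 0.115 and 0.0717. Several of these genes are also expressed with the cell cycle, and the summed proliferation markers rose in the same libraries. A1G replicate 2, lowest of the tumours in that sum, was also lowest for Plk4 at 43.0 CPM and Aurka at 28.7 CPM. Its Mki67, Top2a and Ccnb1 were the lowest of the tumours. The marker Cdk1 was not, at 39.9 CPM in that library within a tumour range of 21.8 to 52.0 CPM. The part of the cell cycle in these rises was not tested.

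The list of Hedgehog transduction at the cilium held 9 genes, of which 8 were tested and Gli3 was not. Of the 8 tested, 7 were higher (87.5%, background 20.7%) and 0 lower. Gli2 (log2 change 4.14, SE 0.37), Gli1 (3.84, SE 0.31) and Smo (2.83, SE 0.32) led, joined by Kif7, Sufu, Efcab7 and Gpr161. Gli1 is also among the granule progenitor markers counted above. Efcab7 is known as a scaffold that anchors Evc and Evc2 at the ciliary base together with Iqce. Evc, Evc2 and Efcab7 were called higher and Iqce was not (log2 change 0.30, SE 0.29, adjusted p = 0.442); the Efcab7 call was lost without A1G replicate 1, Ptch1 replicate 2, or cerebellum replicate 1 or 3, at adjusted p values of 0.0708 to 0.128. Smo had 248, 102 and 149 CPM in A1G tumours, 223, 219 and 293 in Ptch1 tumours, and 29.9, 30.7 and 24.8 in cerebellum. The neuronal cilium receptor Sstr3 was lower, the 1 call among 4 ciliary receptor and cyclase genes (25.0%, background 21.5%). Sstr3 had 1.11, 5.93 and 2.88 CPM in A1G tumours, 0.229, 0.562 and 26.1 in Ptch1 tumours, and 42.5, 38.6 and 32.7 in cerebellum. Ptch1 replicate 3 came close to the cerebellum, and the log2 change was -2.85 (SE 0.90, adjusted p = 0.0227), with an adjusted p of 0.0583 without cerebellum replicate 1 or 2.

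Of 8 cilium transcription factor genes 2 were higher (25.0%, background 20.7%) and 2 lower (25.0%, background 21.5%), both near the background. Rfx3, a member of the family that binds the X-box, had 235, 159.7 and 205 CPM in A1G tumours, 154, 209 and 126 in Ptch1 tumours, and 65.4, 82.4 and 73.9 in cerebellum, and rose by a log2 change of 1.29 (SE 0.25, adjusted p = 0.00116). Its relative Rfx4 fell, with a log2 change of -2.82 (SE 0.44, adjusted p = 0.000277). Myb, which acts in multiciliated cells and also in proliferating cells, rose (3.95, SE 0.44), and Foxj1, the master factor of motile cilia, fell to 7.004, 4.37 and 3.29 CPM in A1G tumours, with 1.37, 2.36 and 1.53 CPM in Ptch1 tumours, against 15.8, 8.51 and 7.39 CPM in cerebellum (log2 change -1.81, SE 0.44, adjusted p = 0.0058; 0.0525 without cerebellum replicate 1). Ependymal cells carry motile cilia, and 3 of their 4 tested markers were lower, Foxj1 among them. The list summed to 4.37 to 15.6 CPM in A1G tumours, 3.45 to 6.87 CPM in Ptch1 tumours and 14.0 to 34.9 CPM in cerebellum. Ccdc153 was at 0 in all 6 tumours and at 8.40, 1.52 and 5.39 CPM in cerebellum. Tmem212, which was not tested, was also at 0 in all 6 tumours, but its 0.263, 0 and 0 CPM in cerebellum show no difference. Among 12 tested motile cilium genes 2 were higher (16.7%, background 20.7%), Mns1 (4.87, SE 0.45) and Ccdc40 (3.52, SE 0.56), and 1 lower (8.33%, background 21.5%). The lower one was Rsph1, a radial spoke gene, with 0, 0 and 0 CPM in A1G tumours, 0, 0.112 and 0 in Ptch1 tumours, and 1.84, 3.04 and 2.40 in cerebellum.

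**Figure D4:**
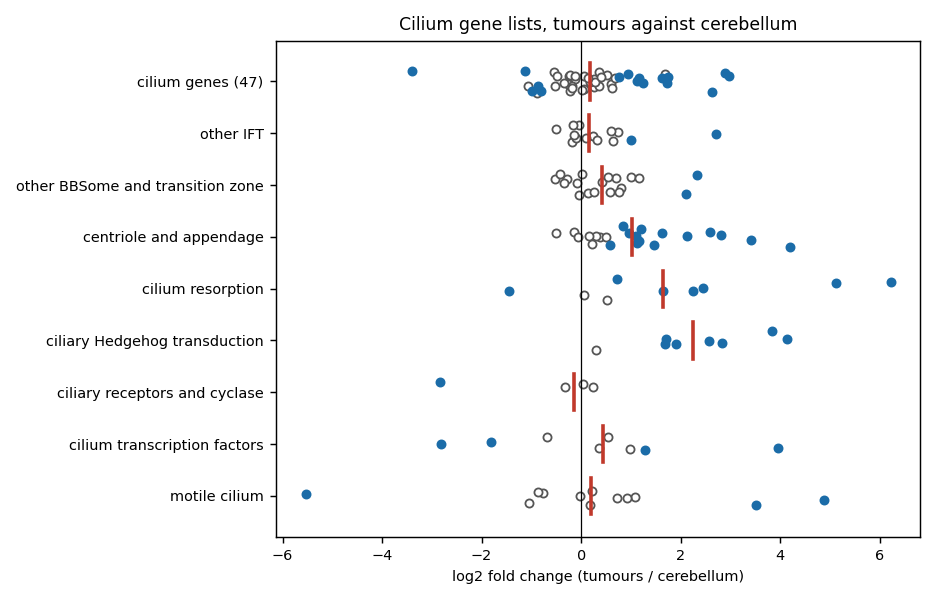
Log2 fold change, tumours over cerebellum, of every tested gene in the 47 cilium genes and the 8 further cilium lists, 1 row per list. Filled points passed an adjusted p under 0.05; the rightmost points of 4 rows are Aurka (resorption) at 6.23, Mns1 (motile cilium) at 4.87, Plk4 (centriole) at 4.20 and Gli2 (Hedgehog) at 4.14.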

How the data were processed

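Ribosome-depleted total RNA of 9 libraries was sequenced on an Ion Proton. The submitters' processing notes name mm10 and Bowtie 0.12.2, without the step it served; annotation, counting tool and strand setting are not given in the sources used here. Per the file headers the authors deposited, for each gene and library, raw fragments, which are estimated counts that need not be whole, and FPKM; the deposited scaled fragments, a signal with tumours and cerebellum scaled in separate runs, were not used for tests. FPKM served for the filter (at least 1 in at least 3 libraries, 14337 of 23360 genes), for levels per length within a group and for limma.

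Fragments were rounded to whole numbers, scaled by TMM over all 9 libraries and tested with edgeR 4.0.16 (R 4.3.3) by its quasi-likelihood test. The fit had 1 mean per group, with Benjamini-Hochberg adjustment over all genes tested at 0.05. Each SE was taken as the absolute log2 change over the square root of that test's F statistic. The 95% intervals were built on these SE with t quantiles, so both are approximate. Alternatives were median-of-ratios scaling, no filter, a filter of 2 FPKM, DESeq2 1.42.0, limma 3.58.1 on log2(FPKM + 1) and log2(FPKM + 0.1), fits on the groups compared only, a replicate block, and leaving out each library. The code was tested on simulated data with far fewer changed genes than were called here, which does not test the scaling under so many changes. Figures were drawn with matplotlib 3.10.9.

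The members, role groups and further lists were chosen with earlier results of these data known. Genes given in every library were Kif3a, Ift88, Arl13b, Ofd1, Evc and Evc2; in tumours against cerebellum up to 4 members per role with the largest change past the threshold; the 5 smallest p values between tumour kinds; and up to 3 genes per further list, with Foxj1 and Rfx3. Ift43, Tctn3, Nedd9, Arl3 and other genes named outside this rule were chosen after their values were seen. Coordinates and exon overlaps come from GENCODE M21. Floors of 3 fragments cover counting error only.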

Additional observations from a re-analysis of the deposited data

How the results depend on the processing

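Over the alternatives, 10 to 12 cilium genes were higher in tumours than in cerebellum (11 as reported), and all but Arl13b of the reported 11 kept their call in every one of 16 settings; B9d2 or Cep290 joined them in some. Kif17 and Kifap3 kept theirs among the lower genes. The count of lower cilium genes (5 as reported) was 3 with limma on log2(FPKM + 1), 3 with limma on log2(FPKM + 0.1), 3 with the replicate block and 2 to 5 without single libraries; it was 7 with DESeq2. In A1G tumours against cerebellum the count of lower cilium genes (4 as reported) was 2 with no filter, 2 with limma at either pseudocount, 2 when only the groups compared were fitted, 2 with the replicate block and 2 to 3 without single libraries. In Ptch1 tumours against cerebellum it was 2 with limma on log2(FPKM + 1) and 1 to 4 without single libraries (4 as reported). Of the further cilium genes, 10 were lower with no filter and 2 to 6 without single libraries (5 as reported). The estimate of Ift88 in tumours against cerebellum, 0.06, changed sign to -0.12 without Ptch1 replicate 1, to -0.02 without cerebellum replicate 3 and to -0.01 when A1G replicate 3 was left out, in a range of -0.12 to 0.18, never past the threshold. Between A1G and Ptch1 tumours 0 cilium genes passed in all 17 alternatives. Same-numbered libraries deviated together only weakly, with correlations of -0.06 to 0.20. Weak correlations cannot exclude that the numbers pair the libraries, and the labels do not say. A fit of only the groups compared was not run for both tumour kinds against cerebellum, where all 9 libraries already enter. The causes were not tested. With 3 libraries a group and 2350941 fragments in the shallowest, precision differed between cilium genes, and the largest SE in tumours against cerebellum were 0.72 for B9d2 and 0.70 for Kif17.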

Other observations

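Ratios of summed fragments within a library do not depend on scaling between libraries; they were chosen after the values above were seen and carry no test. Summed IFT-A over summed IFT-B fragments were 0.649 to 0.702 in A1G tumours, 0.534 to 0.727 in Ptch1 tumours and 0.278 to 0.339 in cerebellum. Dynein-2 (Dync2h1 and Dync2li1) over heterotrimeric kinesin-2 (Kif3a, Kif3b and Kifap3) fragments were 0.308 to 0.534 in A1G tumours, 0.261 to 0.308 in Ptch1 tumours and 0.0859 to 0.160 in cerebellum. In both ratios each of the 6 tumour libraries lay above each of the 3 cerebellum libraries. These ratios restate the calls given above, since Ift140, Ift122, Dync2h1 and Dync2li1 were called higher and Kifap3 lower, and they do not speak for retrograde transport as a whole: the further IFT-A genes Wdr19, Wdr35 and Ttc21b are not in them, and with log2 changes of -0.11, 0.74 and -0.14 in tumours against cerebellum none of these 3 was called, while the further IFT-B gene Ttc26 was higher. Within kinesin-2, Kifap3 over Kif3a was 0.458 to 0.651 in A1G tumours, 0.503 to 0.609 in Ptch1 tumours and 0.830 to 1.06 in cerebellum, again without overlap. Evc2 over Evc overlapped between tissues, at 0.763 to 1.87 in A1G tumours, 1.01 to 1.49 in Ptch1 tumours and 0.793 to 1.80 in cerebellum; both levels were higher in tumours, and their ratio showed no separation.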
